A study of Mus musculus with 12 samples.

Results

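Extracellular nucleotide signalling was described through 10 genes, chosen by name as the ATP release channel, the ectonucleotidases and the P2 and adenosine receptors of the pathway, out of 53801 genes in the count table. They were Panx1, Entpd1, Nt5e, P2rx1, P2rx4, P2rx7, P2ry2, P2ry14, Adora2a and Adora2b, and all 10 were measured and passed the filter on low counts in every comparison. RNA was sequenced from eosinophils of bone marrow and of blood, with 3 libraries in each of 4 groups. Atg5-knockout cells came from Atg5 flox/flox eoCre Il5tg mice, and control cells from eoCre Il5tg mice with no floxed Atg5. Every group therefore carried 1 copy of Cre in the Epx locus, the eosinophil peroxidase gene whose promoter drives it, and an Il5 transgene driven by Cd3d, which expands eosinophils. The age of the animals is not given in the sources used here. Marrow was flushed from leg bones, whereas blood was first spun on a density cushion and its red cells were lysed in water. Both were then depleted of other leukocytes with antibodies, so the tissue and the way the cells were isolated cannot be told apart. The libraries of a group are taken as separate mice, and p-values measure the spread between these samples.

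Cells release ATP through membrane channels such as pannexin 1, encoded by Panx1. On the cell surface CD39, encoded by Entpd1, removes phosphates from ATP and ADP to give AMP, and CD73, encoded by Nt5e, turns AMP into adenosine. ATP opens the P2X cation channels, nucleotides and nucleotide sugars act on the G protein-coupled P2Y receptors, and adenosine acts on its own receptors, of which those encoded by Adora2a and Adora2b raise cyclic AMP and are known to dampen the activation of many leukocytes. In eosinophils extracellular ATP is known as a trigger of calcium entry, chemotaxis and degranulation, and Adora3 encodes a further adenosine receptor of these cells.

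Between bone marrow and blood, both adenosine receptors changed, in opposite directions. Adora2a was 4.97-fold higher in blood than in bone marrow in control cells and 8.62-fold higher in Atg5-knockout cells, while Adora2b was 4.23-fold and 3.02-fold lower. Entpd1, P2rx1 and P2rx4 rose and Panx1 fell in blood in both genotypes, and P2ry2 rose in control cells. Between the tissues 7 of the 10 genes were called in control and 6 in knockout cells, against 34.2% and 47.6% of all genes. The calls of Panx1 and P2rx1 were lost without some single libraries. A difference between genotypes in these tissue changes was called for none of the 10. Between Atg5-knockout and control cells none of the 10 genes was called in either tissue by edgeR's quasi-likelihood test, whose threshold was 0.05 for the adjusted p. In bone marrow the lowest p belonged to Adora2a (adjusted p = 0.192, edgeR). It was lower in every knockout library than in every control library. Groups did not overlap for 2 of the 10 genes there, against 14.4% of all genes tested.

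Total counts ran from 18885052 to 30270166 per library, and 26487 genes had a count. Levels are given as CPM, counts scaled to a common library size, with TMM factors that correct for the makeup of each library, and they compare a gene between samples. Comparisons between genes use CPM per kilobase of the counted length. The labelled cell type was checked on 10 eosinophil genes (Epx, Prg2, Siglecf and others), which held 8.04% to 10.2% of counts in bone marrow and 1.80% to 4.05% in blood. Their members did not move together, since Epx, Prg2, Prg3, Ear1 and Ear2 fell in blood in both genotypes while Siglecf (log2 fold change 0.93 in control and 1.02 in knockout cells) and Ccr3 (0.66 and 1.09) rose. Neutrophil genes held 1.55% to 1.998% in bone marrow and 0.958% to 1.19% in blood, and monocyte and macrophage genes 0.263% to 0.322% in all libraries, with Marco at 0 in every group. Genes of proliferating cells held 0.190% to 0.265% in bone marrow and 0.00591% to 0.0172% in blood, and all 10 of them were lower in blood in both genotypes. Red cell genes held 14.6% of the counts of control blood replicate 1 and 0.145% to 1.43% of the others. Between genotypes in bone marrow 1 of 12 tested red cell genes, Alas2, was called higher in knockout cells (log2 fold change 1.51, adjusted p = 0.0412, edgeR). The median of the tested red cell genes was 1.31 there, and -3.47 in blood, where 0 of 11 were called. B cell genes held 0.0374% to 0.0407% in bone marrow and 0.0150% to 0.229% in blood, T and NK cell genes at most 0.0407%, platelet genes at most 0.0386%, and basophil and mast cell genes at most 0.0243%, with Tpsb2 at 0 in every group. Of 12 tested platelet genes 10 were higher in blood in control cells, and of 11 in knockout cells 3 were higher and 1 lower. T and NK cell genes were higher in blood for 4 of 6 tested in control and 9 of 10 in knockout cells. In such bulk samples fewer cells of a type and less RNA per cell cannot be told apart. The part that marker genes moving with tissue or genotype have in the differences given here was not tested.

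Atg5 itself, the targeted gene (chr10:44268358-44364291), was counted in all libraries. Its level in bone marrow was 41.4, 45.4 and 40.5 CPM in control replicates 1, 2 and 3 and 30.6, 31.3 and 33.9 CPM in the knockout, with no overlap. In blood it was 45.3, 58.8 and 40.1 CPM in control and 36.7, 52.5 and 52.4 CPM in knockout libraries, which overlapped. A gene count adds exons outside the floxed segment to those inside it, so these levels do not check the deletion. The paper measured Atg5 by quantitative PCR and the ATG5 protein by immunoblotting in eosinophils of both tissues and genotypes.

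**Figure D1:**
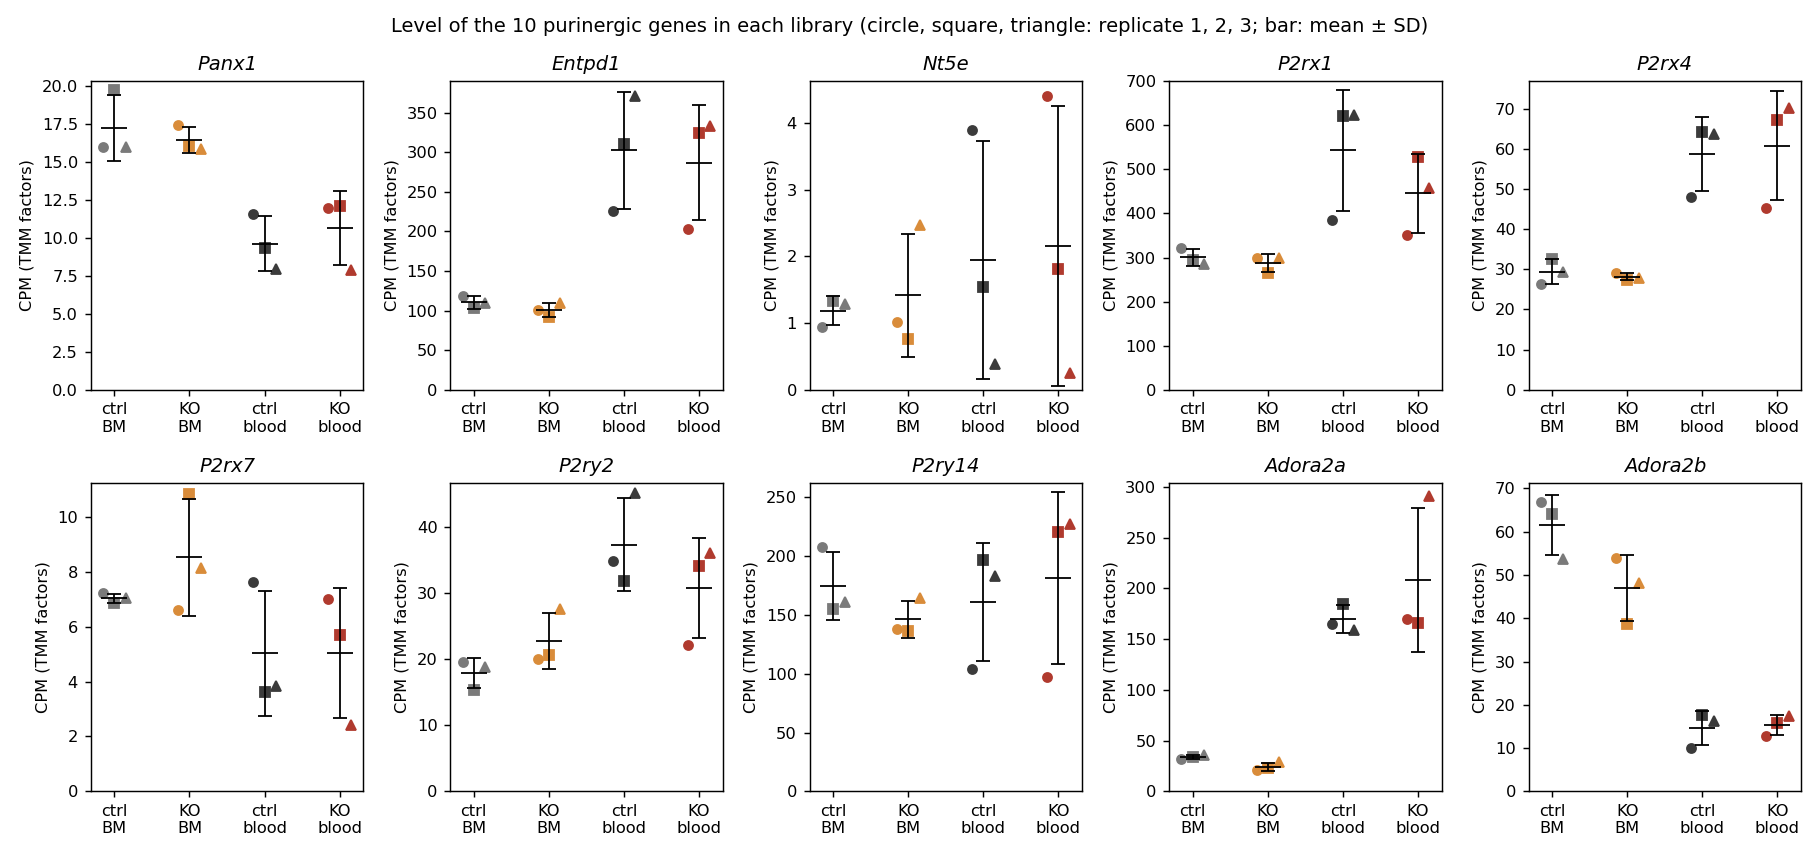
Level of each of the 10 genes in CPM with TMM factors, on linear axes starting at 0, in control (ctrl) and Atg5-knockout (KO) bone marrow (BM) and blood. Points are libraries, and the bar gives mean ± SD of 3. Adora2a lies at 36.0 CPM or lower in all bone marrow libraries and at 159 CPM or higher in all blood libraries, and Adora2b at 38.7 or higher and 17.6 or lower.

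Per length, the receptor P2rx1 held the first place among the 10 genes, with a mean of 150 CPM per kilobase over the 12 libraries. Entpd1 and Adora2a followed at 35.8 and 35.6 CPM per kilobase. Adora2b had 18.8, P2ry14 14.99, P2ry2 6.93, P2rx4 6.30, Panx1 2.24 and P2rx7 1.07 CPM per kilobase. The pooled order hides the tissues. Adora2a had 11.04 and 7.98 CPM per kilobase in control and knockout bone marrow, below Adora2b (33.3 and 25.5), Entpd1 (19.8 and 18.03) and P2ry14 (15.8 and 13.2). In blood its group means were 55.4 and 68.1, above those of Entpd1 (54.2 and 51.4). Single blood libraries did not all keep that order, since Entpd1 had 66.6 in control replicate 3, above Adora2a there. P2rx1 was first and Nt5e last in each of the 4 groups. Over the 12 libraries Nt5e had 0.195, so the transcript for the enzyme that makes AMP was far more abundant than the transcript for the enzyme that turns AMP into adenosine. The ratio of Entpd1 to Nt5e per kilobase was 68.4 or higher in every library. These levels are descriptions of transcripts, and protein was not measured here.

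In the table's build, GRCm38 with Ensembl release 92, Panx1 is at chr9:15002128-15045478, Entpd1 at chr19:40612366-40741602, Nt5e at chr9:88327197-88372092 and P2ry2 at chr7:100996568-101012866. P2rx7 (chr5:122643911-122691432) and P2rx4 (chr5:122707544-122729738) are neighbours on the same strand, and P2rx1 is at chr11:72999103-73015200. P2ry14 is at chr3:59113855-59153618, Adora2a at chr10:75316877-75334784 and Adora2b at chr11:62248984-62266453. Counts cover all exons of a gene, untranslated ones included. P2rx7 shares 119 exon bases with Mir8115, which had 0 counts, and the other 9 genes share no exon base with another gene.

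Upstream windows are shown for Entpd1 and P2rx4, which rose in blood in both genotypes, and for Panx1 and Adora2b, which fell, because RefSeq and the count table give the same start for these genes. Each is the 250 bases before the start, on the gene's strand and in GRCm38.p6 as RefSeq gives it, at chr19:40612116-40612365 (plus strand), chr5:122707294-122707543 (plus), chr9:15045479-15045728 (minus) and chr11:62248734-62248983 (plus). Capitals mark a match to GATAA or its reverse complement TTATC, the core of the sites of GATA factors, which direct the eosinophil lineage.
Entpd1: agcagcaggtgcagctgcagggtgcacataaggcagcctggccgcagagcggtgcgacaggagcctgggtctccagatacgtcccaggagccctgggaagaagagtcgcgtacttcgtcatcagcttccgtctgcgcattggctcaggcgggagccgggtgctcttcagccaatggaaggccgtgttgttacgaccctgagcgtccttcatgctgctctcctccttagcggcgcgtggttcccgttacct
P2rx4: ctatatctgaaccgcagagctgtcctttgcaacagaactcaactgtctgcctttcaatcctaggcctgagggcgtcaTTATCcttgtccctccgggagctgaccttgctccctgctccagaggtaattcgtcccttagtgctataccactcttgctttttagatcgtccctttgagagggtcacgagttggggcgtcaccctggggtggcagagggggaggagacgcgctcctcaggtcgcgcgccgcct
Panx1: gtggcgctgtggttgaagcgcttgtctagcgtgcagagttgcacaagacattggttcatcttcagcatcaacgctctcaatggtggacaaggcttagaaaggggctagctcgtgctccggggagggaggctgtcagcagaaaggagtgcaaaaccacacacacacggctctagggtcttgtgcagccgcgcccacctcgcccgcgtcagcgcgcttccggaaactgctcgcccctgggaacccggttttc
Adora2b: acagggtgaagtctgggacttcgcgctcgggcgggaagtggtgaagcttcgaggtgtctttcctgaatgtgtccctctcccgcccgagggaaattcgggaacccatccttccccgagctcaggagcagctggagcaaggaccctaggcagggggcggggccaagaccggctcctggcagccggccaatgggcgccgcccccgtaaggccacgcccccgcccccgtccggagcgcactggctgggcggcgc
The match in P2rx4 begins 173 bases before the start. Of the 9 members with a window in RefSeq, 3 held GATAA on either strand (P2rx1, P2rx4 and P2ry14), against 22.6% of 32851 windows of the same length. TGANTCA, the AP-1 site, occurred in 2 (P2rx7 and P2ry14), against 6.75% of windows. ACGTG, the core of the hypoxia response element, and TGACGTCA, the cyclic AMP response element, occurred in 0 of the 9, against 16.6% and 1.55% of windows. Both strands were searched, no match of one motif overlapped a match of another in these genes, and a match is a description of letters only.

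The first pair of comparisons asked whether loss of Atg5 changed these genes within a tissue. In bone marrow, edgeR called 0 of the 10 genes, and called 0.348% of all genes tested. With no adjustment 3 of the 10 had p under 0.05, against 9.67% of all genes, and DESeq2, run as an alternative, called 1, and 196 of all genes. The median log2 fold change of the 10 was -0.095, against 0.0029 over all genes tested.

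The adenosine receptors had the lowest p-values of the 10 in this comparison. In bone marrow Adora2a had 31.8, 33.7 and 36.0 CPM in control replicates 1, 2 and 3 and 21.0, 23.5 and 28.8 CPM in Atg5-knockout replicates. Every knockout library lay below every control library. The log2 fold change was -0.50 (SE 0.13, 95% interval -0.78 to -0.21, adjusted p = 0.192, edgeR). DESeq2 gave -0.51 with an adjusted p of 0.0465, and edgeR with no filter on low counts gave an adjusted p of 0.0155, while over all alternatives the adjusted p ran up to 1, in the fit of 12 libraries. Adora2b had 66.8, 64.0 and 53.7 CPM in control and 54.0, 38.7 and 48.2 CPM in knockout bone marrow, and knockout replicate 1 lay just above control replicate 3. Its log2 fold change was -0.42 (SE 0.14, 95% interval -0.72 to -0.12, adjusted p = 0.33, edgeR). With no filter the adjusted p was 0.0462 and DESeq2 gave 0.154. The red cell gene Alas2 was called higher in knockout bone marrow (adjusted p = 0.0412, edgeR). The part of red cell genes in these levels was not tested.

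Of the P2Y receptors, P2ry2, a receptor for ATP and UTP, had 19.7, 15.4 and 18.9 CPM in control and 20.1, 20.6 and 27.6 CPM in knockout bone marrow. All knockout libraries were above all control libraries, the closest by under 1 CPM, and the log2 fold change was 0.31 (SE 0.15, adjusted p = 0.544, edgeR). With Adora2a it made 2 of 10 genes whose groups did not overlap, against 14.4% of all genes tested. P2ry14, the receptor for UDP-glucose, had 208, 155 and 161 CPM in control and 138, 136 and 164 CPM in knockout bone marrow. These groups overlapped, and the log2 fold change was -0.28 (SE 0.13, adjusted p = 0.513, edgeR). The release channel, the ectonucleotidases and the P2X receptors had log2 fold changes between -0.16 (Entpd1) and 0.25 (P2rx7), with overlapping groups and adjusted p of 0.662 or higher. Their intervals were narrowest for Entpd1 (-0.40 to 0.07), P2rx1 (-0.32 to 0.14) and P2rx4 (-0.35 to 0.16). Panx1 ranged from -0.39 to 0.20 in its interval.

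In blood, edgeR called 0 of the 10 genes and 0.0371% of all genes tested. With no adjustment 0 of the 10 had p under 0.05, against 2.58% of all genes, DESeq2 called 0, and none of the 10 had groups apart, against 7.58%. The farthest from 0 was Adora2a, with 165, 185 and 159 CPM in control and 169.7, 166 and 291 CPM in knockout replicates 1, 2 and 3. Knockout replicate 3 alone lay above the control range, and the log2 fold change of 0.32 (SE 0.25, 95% interval -0.24 to 0.88, adjusted p = 1, edgeR) became -0.0047 without it. The blood libraries varied more than those of bone marrow, with a common coefficient of biological variation of 0.365 against 0.146, and the intervals were wider. Those for Panx1 (-0.48 to 0.81), Entpd1 (-0.65 to 0.53), P2rx1 (-0.83 to 0.30), P2rx4 (-0.44 to 0.58) and P2rx7 (-1.05 to 1.10) all included 0 on the log2 scale. That of Nt5e ran from -2.04 to 2.40.

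Whether the effect of the genotype differed between tissues was tested as an interaction over 12 libraries. edgeR called 0 of the 10 genes and 0 of 14712 genes, with a lowest adjusted p of 0.406, and DESeq2 called 0 of the 10 and 15 of all genes. With no adjustment 1 of the 10 had p under 0.05, Adora2a, against 5.03% of all genes. Its interaction was 0.77 on the log2 scale (SE 0.29, 95% interval 0.15 to 1.38, adjusted p = 0.942), and it ran from 0.45 to 0.92 when single libraries were left out. P2ry2 had -0.62 with an interval of -1.27 to 0.03, and Adora2b 0.46 with an interval of -0.18 to 1.10.

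**Figure D2:**
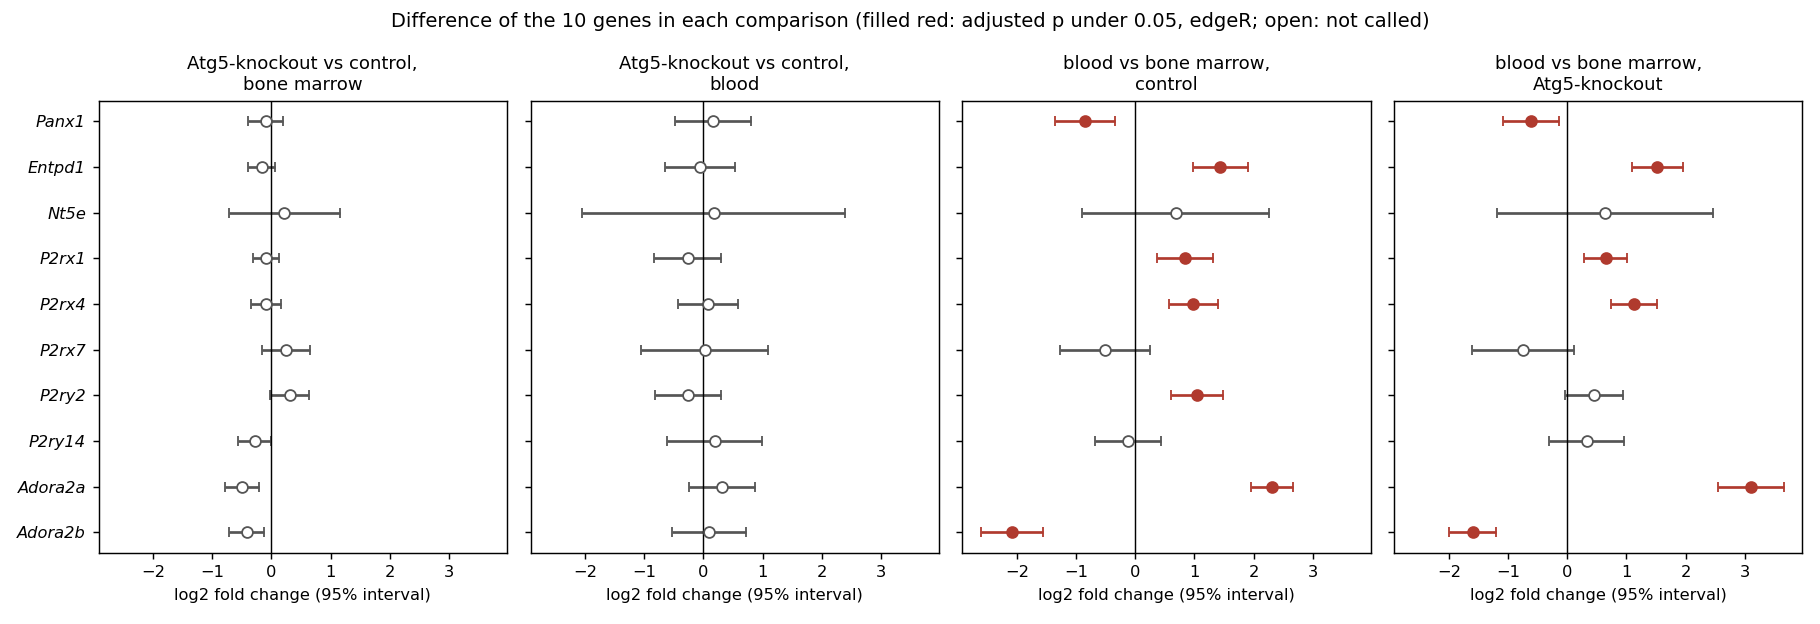
Difference of each gene in log2 fold change with its 95% interval from edgeR, in the 4 comparisons, the first group of each title minus the second. Filled red points were called (adjusted p below 0.05) and open points were not. No gene is filled between genotypes, and 7 and 6 genes are filled between tissues in control and Atg5-knockout cells.

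The second pair of comparisons set blood against bone marrow within a genotype. In control cells 7 of the 10 genes were called, 5 higher and 2 lower in blood, while 34.2% of all genes tested were called, 16.2% higher and 18% lower. In Atg5-knockout cells 6 were called, 4 higher and 2 lower, against 47.6% of all genes, 23.5% higher and 24.1% lower. Groups were apart for 7 genes in control and 6 in knockout cells, against 50.1% and 60% of all genes. The tissues differed broadly, and in knockout cells the share of the 10 genes is near the background. The median log2 fold change of the 10 was 0.76 in control and 0.55 in knockout cells, against -0.0029 and -0.010 over all genes. At the study's additional limit of a log2 fold change beyond 2, 2 genes passed in control cells (Adora2a and Adora2b) and 1 in knockout cells (Adora2a), against 9.58% and 11.4% of all genes.

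Adora2a rose in blood. Its 6 bone marrow libraries had 21.0 to 36.0 CPM and its 6 blood libraries 159 to 291 CPM. This was a log2 fold change of 2.31 in control (SE 0.16, adjusted p = 2.25e-05) and 3.11 in Atg5-knockout cells (SE 0.25, adjusted p = 2.31e-05, edgeR). Adora2b fell in blood, from 53.7 to 66.8 CPM in control bone marrow to 10.1, 17.6 and 16.2 CPM in control blood. In knockout blood it had 12.8, 15.9 and 17.4 CPM. That is a log2 fold change of -2.08 in control (SE 0.23, adjusted p = 0.000314) and -1.60 in knockout cells (SE 0.18, adjusted p = 0.000143, edgeR). The groups of the tissues were far apart for both receptors, and the calls held without any single library.

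Adora3, an adenosine receptor that lowers cyclic AMP and is not among the 10, fell as well. It had 167, 175 and 154 CPM in control and 134, 94.0 and 146 CPM in knockout bone marrow. In blood it had 7.81, 17.6 and 63.7 CPM in control and 9.65, 22.2 and 15.4 CPM in knockout libraries, so control replicate 3 stood above the other 5. The log2 fold change was -2.49 in control (adjusted p = 0.0148) and -2.97 in knockout cells (adjusted p = 8.33e-05, edgeR). Per kilobase, the ratio of Adora2a to Adora2b was between 0.234 and 0.404 in every bone marrow library and between 5.91 and 10.05 in every blood library. The order of these receptors per length was therefore turned between the tissues in both genotypes.

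**Figure D3:**
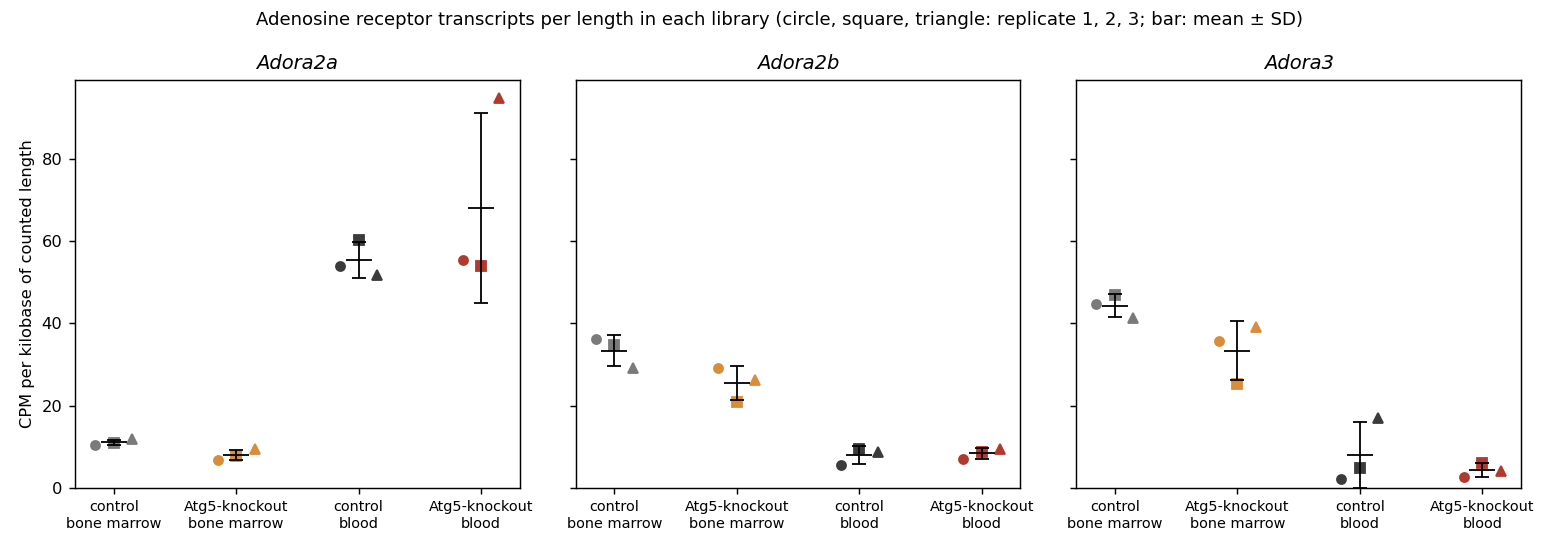
Adenosine receptor transcripts in CPM per kilobase of counted length on a shared linear axis from 0, in each library of the 4 groups, with the bar at mean ± SD of 3. Adora2a is low in bone marrow and high in blood, while Adora2b and Adora3 are high in bone marrow and low in blood, with control blood replicate 3 highest of the blood libraries for Adora3 at 17.1.

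Entpd1 rose in blood. Control bone marrow had 119, 103 and 110.1 CPM and control blood 225, 310.1 and 371 CPM in replicates 1, 2 and 3. Knockout bone marrow had 101, 91.3 and 109 CPM and knockout blood 203, 324 and 333 CPM. All blood libraries were above all bone marrow libraries, by 2.71-fold in control (log2 fold change 1.44, SE 0.20, adjusted p = 0.00103) and 2.88-fold in knockout cells (1.53, SE 0.19, adjusted p = 0.000303, edgeR). Nt5e, the next enzyme, was sparse and not called. Its counts in blood were 64, 35 and 8 in control and 103, 40 and 5 in knockout replicates 1, 2 and 3, so that replicate 1 was highest and replicate 3 lowest in both genotypes. In bone marrow it had 31, 35 and 39 counts in control and 30, 24 and 67 in knockout libraries.

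Of the P2X channels, P2rx1 rose in blood, from 323, 294 and 285 CPM in control bone marrow to 385, 621 and 623 CPM in control blood. In knockout cells it had 299, 264 and 299 CPM in bone marrow and 351, 528 and 457 CPM in blood. The groups were apart, with replicate 1 of blood nearest to bone marrow in both genotypes. The log2 fold change was 0.84 in control (SE 0.21, adjusted p = 0.0144) and 0.65 in knockout cells (SE 0.16, adjusted p = 0.00981, edgeR). It was not called in control cells without control bone marrow replicate 2 or 3 (adjusted p = 0.0673 and 0.0803), or in knockout cells without knockout bone marrow replicate 2 (0.0561). P2rx4 had 26.3, 32.6 and 29.4 CPM in control bone marrow and 48.0, 64.3 and 63.7 CPM in control blood. In knockout cells the levels were 29.1, 27.5 and 27.8 CPM and 45.2, 67.2 and 70.2 CPM. The groups were apart and the log2 fold change was 0.98 in control (SE 0.18, adjusted p = 0.00371) and 1.13 in knockout cells (SE 0.17, adjusted p = 0.000864, edgeR).

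P2rx7, the channel that opens at high ATP and is known to activate the NLRP3 inflammasome, was low and not called. Control bone marrow had 7.21, 6.88 and 7.02 CPM and control blood 7.63, 3.61 and 3.83 CPM. Knockout bone marrow had 6.61, 10.8 and 8.14 CPM and knockout blood 6.99, 5.69 and 2.40 CPM. Replicate 1 of blood was the highest blood library in both genotypes. The log2 fold change from bone marrow to blood was -0.50 in control and -0.74 in knockout cells, with adjusted p of 0.276 and 0.137 (edgeR). Without blood replicate 1, P2rx7 was called lower in blood, at -0.93 in control (adjusted p = 0.0134) and -1.05 in knockout cells (adjusted p = 0.0302, edgeR).

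B and T cells are known to carry Nt5e and P2rx7, and their marker genes differed between blood libraries. B cell genes held 0.112%, 0.0315% and 0.0150% of counts in control blood replicates 1, 2 and 3 and 0.229%, 0.0391% and 0.0267% in knockout blood. T and NK cell genes held 0.0313%, 0.0129% and 0.0105% in control and 0.0407%, 0.0212% and 0.0154% in knockout blood. Replicate 1 was highest in each of these series, as it was for Nt5e and P2rx7. Blood replicate 1 was also highest for red cell (14.6% in control and 0.734% in knockout), platelet (0.0386% and 0.00907%) and proliferating cell genes (0.0172% and 0.0144%). Without it the tissue difference of Nt5e turned from 0.68 to -0.29 in control and from 0.64 to -0.42 in knockout cells. The part of any of these marker genes in the levels of Nt5e and P2rx7 was not tested. Cd3e was at 0 in both bone marrow groups.

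**Figure D4:**
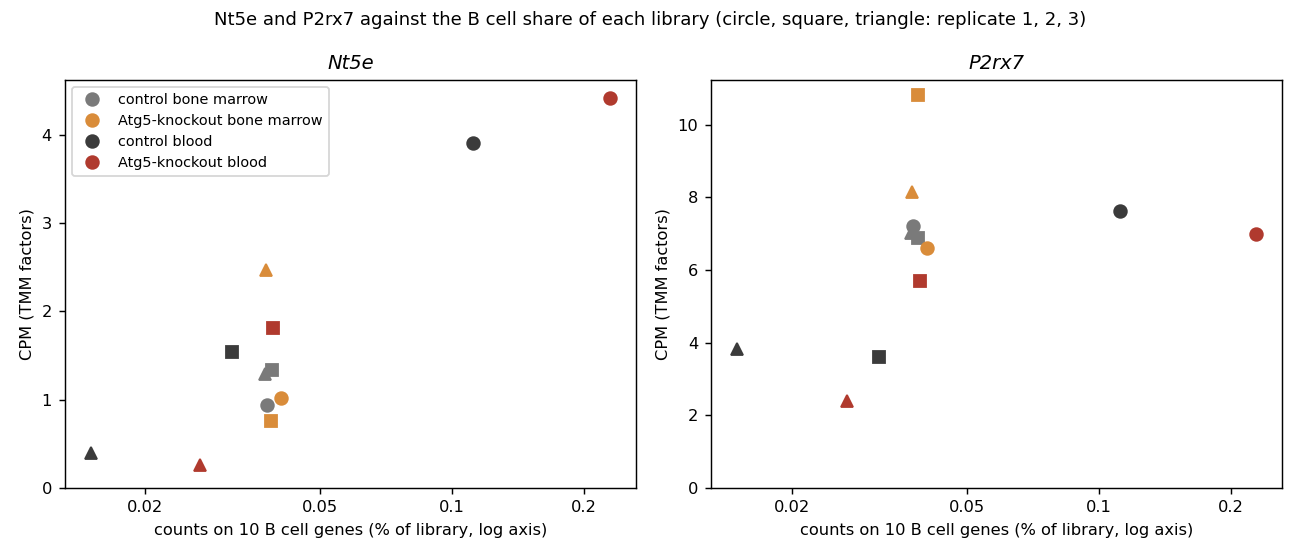
Nt5e and P2rx7 in CPM with TMM factors (linear axis from 0) against the percent of each library's counts on 10 B cell genes (log axis), 1 point per library. The bone marrow libraries sit together near 0.04%, while the blood libraries run from 0.0150% to 0.229%, with replicate 1 of each genotype at the right and highest of its group for both genes.

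The opposite order in those libraries was seen in 5 members. Entpd1, P2rx1, P2rx4, P2ry14 and Adora2b were lowest in blood replicate 1 of both genotypes. P2ry14 had 104, 197 and 183 CPM in control blood and 97.4, 220.2 and 227 CPM in knockout blood. Bone marrow had 136 to 208 CPM, so replicate 1 of blood lay below that range and the other 4 blood libraries at 183 CPM or higher. P2ry14 was not called between tissues, at -0.12 in control and 0.33 in knockout cells. Without knockout blood replicate 1 it was called, at 0.63 with an adjusted p of 0.00229 (edgeR). The share of the 10 eosinophil genes was also lowest in replicate 1, at 2.24%, 2.97% and 4.05% of counts in control and 1.80%, 2.85% and 2.73% in knockout blood replicates 1, 2 and 3, and its part in these levels was not tested. Control blood replicate 1 was also the library with 14.6% of counts on red cell genes. With those genes removed from the table, the same numbers of members, 7 and 6, were called in the control and knockout comparisons of tissues.

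P2ry2 rose in control blood, with 34.9, 31.9 and 45.2 CPM against 19.7, 15.4 and 18.9 CPM in control bone marrow. It differed by a log2 fold change of 1.04 (SE 0.20, adjusted p = 0.00422, edgeR). In knockout cells blood had 22.2, 34.2 and 36.1 CPM and bone marrow 20.1, 20.6 and 27.6 CPM, which overlapped. The log2 fold change there was 0.45 (SE 0.21, 95% interval -0.03 to 0.93, adjusted p = 0.112), and without knockout blood replicate 1 it was 0.64 (adjusted p = 0.00881, edgeR). The difference between these genotype-specific changes is the interaction given above, which was not called.

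Panx1, the release channel, fell in blood. Control bone marrow had 15.98, 19.8 and 16.04 CPM and control blood 11.6, 9.37 and 7.96 CPM. Knockout bone marrow had 17.5, 16.1 and 15.9 CPM and knockout blood 11.96, 12.1 and 7.87 CPM. No blood library reached the bone marrow range, and the log2 fold change was -0.85 in control (SE 0.22, adjusted p = 0.0184) and -0.61 in knockout cells (SE 0.21, adjusted p = 0.037, edgeR). The call depended on single libraries. It was lost in control cells without control bone marrow replicate 2 or 3 (adjusted p = 0.0845 and 0.0607), and in knockout cells without any 1 of the 3 knockout bone marrow libraries or without knockout blood replicate 3 (0.0565 to 0.115).

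The rest of the pathway was followed in 60 further genes of ATP release, nucleotide and adenosine enzymes, receptors and nucleoside handling, of which 38 passed the filter in each comparison. Between genotypes edgeR called 0 of them in bone marrow and 0 in blood, while it called 0.348% and 0.0371% of all genes. Before adjustment 3 and 0 had p under 0.05, against 9.67% and 2.58% of all genes, and DESeq2 called 0 and 0. Between tissues 4 were higher and 8 lower in blood in control cells, and 8 were higher and 10 lower in knockout cells. Of the 38 tested, 12 and 18 were thus called, where 34.2% and 47.6% of all genes were, so these counts are near the background. The median log2 fold change of the tested genes was -0.16 and -0.11.

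Among release channels, Calhm2, a member of the calcium homeostasis modulator family, fell in blood by a log2 fold change of -2.37 in control (adjusted p = 0.00031) and -1.56 in knockout cells (adjusted p = 0.00303). Calhm6, named after its values were seen, was called higher in knockout blood (1.78, adjusted p = 0.00868, edgeR) but not in control blood (0.77, adjusted p = 0.157). The connexin gene Gjb2 had 0 counts in bone marrow and 78 and 97 counts in control and knockout blood, at least 39.1-fold and 43.8-fold higher when 3 counts summed over a group are taken as the floor. The connexin gene Gja1 went the other way, with 84 counts in control bone marrow and 0 in control blood, at least 18.6-fold lower. In knockout cells Gja1 had 83 counts in bone marrow and 1 in blood, a ratio of 61.2 (95% counting interval 10.7 to 2446).

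Of the 11 tested enzymes, 1 was higher and 2 were lower in blood in control cells, and 4 were higher and 4 lower in knockout cells. Of all genes tested, 16.2% were called higher and 18% lower in control cells, and 23.5% and 24.1% in knockout cells. Acp3, a phosphatase that can also turn AMP into adenosine, rose in blood by 1.40 in control (adjusted p = 0.0032) and 1.11 in knockout cells (adjusted p = 0.000388). It had 19.3 to 25.1 CPM in bone marrow and 40.6 to 78.2 CPM in blood. Ada, which turns adenosine into inosine, fell by -1.25 (adjusted p = 0.00262) and -1.74 (adjusted p = 0.000268) on the log2 scale, from 22.5 to 26.6 CPM in bone marrow to 5.92 to 12.2 CPM in blood. Entpd5 also fell, at -1.04 and -1.33, and Enpp4, which edgeR called only in knockout cells and DESeq2 in both genotypes, had -1.10 in knockout cells (adjusted p = 0.00418, edgeR). Outside the naming rule, and chosen after their values were seen, Enpp1 (2.12, adjusted p = 0.00803), Bst1 (1.47, 0.0294) and Dpp4 (1.01, 0.0448) were the other enzymes called higher in knockout blood. Entpd7 (-0.70, adjusted p = 0.00863) was the other enzyme called lower there. None of these was called in control cells by edgeR, where Entpd7 had -0.68 (adjusted p = 0.0605). DESeq2 called Entpd7 in both genotypes and did not call Enpp1, Bst1 or Dpp4 in control cells. Among the genes of nucleoside handling, Pnp, the purine nucleoside phosphorylase, fell at -1.17 in control and -1.14 in knockout cells. Ahcy, which splits S-adenosylhomocysteine into adenosine and homocysteine, fell at -2.02 and -1.96.

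Of the other P2Y receptors, P2ry1, a receptor for ADP, fell in blood by -2.96 in control (adjusted p = 0.000643) and -2.37 in knockout cells (adjusted p = 0.000237, edgeR). It had 8.17 to 14.1 CPM in bone marrow and 0.884 to 2.23 CPM in blood. P2ry10, listed with the family by its symbol but known as a receptor for a lysophospholipid, rose at 0.81 (adjusted p = 0.00609) and 1.66 (adjusted p = 0.00126). P2ry6, a receptor for UDP named after its values were seen, was called higher in control blood (0.92, adjusted p = 0.043, edgeR). It was not called in knockout cells (0.46, adjusted p = 0.155). P2ry10b, also named after its values were seen, was called higher in knockout blood (0.85, adjusted p = 0.015, edgeR) but not in control blood (-0.13, adjusted p = 0.813).

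For the 3 members of highest mean level per length over the 12 libraries, the genes of most similar pattern over the 12 libraries were listed from 14569 genes by Pearson r of log2 CPM. P2rx1 was nearest to Myl12b (0.987), Dym (0.986) and Fes (0.982). Entpd1 was nearest to Smpdl3a, Supt4a (both 0.993) and Pygl (0.992), and Adora2a to Pim1 (0.994), Ets2 (0.993) and Gpr137b (0.992). These values share the same libraries and the same 2 tissues, and they are a description only.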

How the data were processed

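The 10 members and all gene lists were chosen with earlier results of these data known. The authors deposited raw counts per gene from featureCounts 2.0.1 on GRCm38 with Ensembl release 92, per the file header, which names a paired-end option and no strand option. The methods name HISAT2 2.2.1, single-end reads of a stranded kit and GRCm39 instead. Reads on several genes or places were not counted. Symbols (49674 of 53801) came from GENCODE.

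Each comparison of 6 libraries was tested with edgeR 4.0.16 in R 4.3.3 (TMM, minimum count 10, minimum total 15, prior count 0.125, quasi-likelihood test, two-sided, Benjamini-Hochberg over all genes tested), called at 0.05. The interaction used 12 libraries. DESeq2 1.42.0 was an alternative. The scripts were tested on simulated data. Log2 CPM for likeness used a prior count of 2.  Intervals, floors and bounds for counts of 0 cover counting error only. By rule, members, up to 12 called genes of the wider list, and 3 genes of most similar pattern for 3 members were named. The rest of the 19 genes of that list called by edgeR were named after their values were seen.

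Same-numbered libraries deviated together in blood (correlations 0.50, 0.21 and 0.30), a pairing seen in the data and not stated in the labels. In bone marrow they did not, at -0.15 to 0.0041. Across tissues not every pair passed 0.1 (-0.041 to 0.13 in control and -0.11 to 0.043 in knockout cells). The main tests of all comparisons, blood included, took no account of the replicate numbers. Pairing by number entered only as an alternative, called the replicate block below.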

Additional observations from a re-analysis of the deposited data

How the results depend on the processing

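The counts of members called were 0 in both genotype comparisons, 7 and 6 between tissues and 0 for the interaction under DESeq2-type factors, removal of red cell genes, a filter at 1 CPM in 3 libraries, a fit of 12 libraries and the replicate block. In bone marrow DESeq2 called 1 member (Adora2a) and edgeR with no filter called 2 (Adora2a and Adora2b). Both settings also called more of all genes, with the totals given below. With a log2 fold change beyond 2 required, the counts between tissues were 2 in control and 1 in knockout cells. Leaving out single libraries gave 5 to 8 members in control cells, while 2627 to 5926 of all genes were called. In knockout cells it gave 4 to 9 members, while 4584 to 7756 of all genes were called. The highest of both, 9 and 7756, came without knockout blood replicate 1. The cause of these shifts was not tested.

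Between genotypes many small differences turned sign when a library was left out. In bone marrow Nt5e ran from -0.45 to 0.53 and Panx1 from -0.16 to 0.018. In blood Entpd1 ran from -0.23 to 0.13, Nt5e from -0.89 to 1.17, P2rx4 from -0.053 to 0.24, P2rx7 from -0.30 to 0.45, P2ry14 from -0.045 to 0.48, Adora2a from -0.0047 to 0.46 and Adora2b from -0.12 to 0.24. Between tissues Nt5e ran from -0.29 to 1.18 in control and -0.42 to 1.29 in knockout cells, and P2ry14 from -0.29 to 0.12 in control cells. With the replicate block P2rx7 in blood between genotypes was -0.014, and the block changed no call of a member.

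Over all genes, 48 were called between genotypes in bone marrow, against 196 by DESeq2, 420 with no filter, 12 in the fit of 12 libraries, 23 with the replicate block and 18 to 219 with a library left out. In blood 5 were called, against 22, 77, 16 and 10 in that order and 2 to 6 with a library left out. For the interaction DESeq2 called 15 and no filter gave 119, against 0. Between tissues in control cells 4678 genes were called, and 2627 to 5926 with a library left out. In knockout cells 6592 were called, and 4584 to 7756 with a library left out, 7756 without knockout blood replicate 1. Nt5e, at 5 to 103 counts per library, had the widest intervals of the 10 members, and a difference that was not called is not shown to be absent.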
